A study of Mus musculus with 8 samples.

Results

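The genes described here are 10 Toll-like receptor genes and partners, Tlr1, Tlr2, Tlr4, Tlr6, Tlr7, Tlr8, Tlr9, Tlr13, Cd14 and Myd88, taken by symbol from the 15576 genes of the LSC table. They were chosen from earlier results of this comparison, so their values, and the calls counted for them, are a description that supports nothing. LSCs (leukemic stem cells) were sorted from the bone marrow of C57BL/6 mice that carried BCR-ABL and SCL-tTA, a pair of transgenes through which BCR-ABL is expressed in SCL-positive stem cells once tetracycline is removed. All 8 libraries came from such leukemic mice: 4 from untreated animals (CML LSCs) and 4 from animals given 400 mg/kg imatinib by gavage on alternate days for 4 weeks (CML-TKI LSCs), with no healthy control among them. The dose is that of the sample labels, and the study's legend for these cells names a lower one. The labels give the sort as Lin-Sca1+cKit+Flt3-CD150-CD48+, whereas the study defines LSCs as CD48-negative and CD150-positive. Nothing states that the libraries came from separate animals, so the errors measure the spread between these samples, which may be technical. The common coefficient of variation between libraries was 28% in CML LSCs and 69.2% in CML-TKI LSCs, and the fitted errors pool both groups.

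Toll-like receptors are membrane proteins that bind conserved parts of microbes and, through a shared intracellular TIR domain, recruit adaptor proteins that lead to NF-kB and interferon regulatory factors. TLR1, TLR2, TLR4 and TLR6 act at the cell surface, and TLR7, TLR8, TLR9 and TLR13 bind nucleic acids in endosomes. In bone marrow they are best known from monocytes, macrophages and granulocytes, and several are also found on stem and progenitor cells.

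Library totals ran from 4939644 to 8620101 counts for CML LSCs and from 1041552 to 5104268 counts for CML-TKI LSCs, and 3 counts, taken as the floor, came to 0.348 to 0.607 CPM in the former and 0.588 to 2.88 CPM in the latter. CPM are counts scaled to library size, with TMM factors for all gene levels but without them for these floors. On the TMM scale, 3 counts in CML-TKI 3 are 3.27 CPM. CML-TKI 3 was the smallest library and stood apart from the others. Its B cell markers summed to 285 CPM against 16.8 to 23.2 CPM elsewhere, Hba-a1, an alpha globin, was at 19496 CPM against at most 109 CPM, and Ddx3y, on the Y chromosome, was at 55.5 CPM and at 0 in every other library. Xist, on the X chromosome, was at 1785 CPM in CML-TKI 3 and at 2745 to 8385 CPM in the other libraries, so CML-TKI 3 held both Ddx3y and Xist. Of the genes behind the sort, Slamf1 (CD150) was at 28.8 to 37.5 CPM in CML LSCs and 0.616 to 6.53 CPM in CML-TKI LSCs, Cd48 at 3.84 to 6.36 CPM and 39.6 to 177 CPM, and Kit at 759 to 1017 CPM and 193 to 289 CPM. A list of 12 stem cell markers summed to 1953 to 2508 CPM in CML LSCs and to 249 to 685 CPM in CML-TKI LSCs, and 4 of the 11 tested were lower. The part of these differences in the results below was not tested, and in bulk samples a change in the number of cells of a type and a change in RNA per cell cannot be told apart.

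The endosomal receptors were near the floor in CML LSCs and clearly counted in CML-TKI LSCs. Tlr7, Tlr8, Tlr9 and Tlr13 together summed to 1.22, 2.68, 2.69 and 1.37 CPM in CML 1, 2, 3 and 5, and to 42.3, 115, 124 and 99.3 CPM in CML-TKI 1 to 4. The means were 1.99 ± 0.807 CPM and 95.3 ± 36.8 CPM (SD, n = 4), and the groups did not overlap. CML-TKI 1 was the lowest CML-TKI library in this sum.

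Tlr13 encodes a receptor for a stretch of bacterial large-subunit ribosomal RNA and lies on chromosome X (chrX:106143275-106160493 of GRCm38.p6). Its levels were 0.812, 0.959, 0.768 and 0.82 CPM in the CML libraries and 24.7, 51.4, 46.8 and 31.5 CPM in CML-TKI 1 to 4. Every CML-TKI library was thus far above every CML library. The CML libraries were close to each other, but their values rest on 21 counts in all, and the CML-TKI values on 463. The fitted log2 fold change, CML-TKI over CML as throughout, was 5.48 with a standard error (SE) of 0.42, the smallest SE among Tlr1, Tlr8, Tlr9, Tlr13 and Cd14.

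Tlr8, a close relative of Tlr7 among the sensors of single-stranded RNA, is on the same chromosome (chrX:167241123-167264329). It was at 0.135, 0.767, 0.96 and 0.137 CPM in the CML libraries. In CML-TKI 1 to 4 it was at 9.62, 53.3, 56.6 and 34.6 CPM, with CML-TKI 1 again the lowest. The CML values rest on 11 counts in all and the CML-TKI values on 410. The log2 fold change was 6.28 (SE 0.82), the highest among the members.

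Tlr7, which also binds single-stranded RNA and neighbours Tlr8 (chrX:167303380-167330574), was at 0.271, 0.575, 0.384 and 0 CPM in the CML libraries, each at or under 3 counts. It was at 3.58, 1.23, 17.4 and 17.1 CPM in CML-TKI 1 to 4. The CML-TKI libraries were all higher but fell into low (1 and 2) and high (3 and 4) values. The dendritic cell markers Siglech, at 0, 0, 19.6 and 9.56 CPM, and Itgax, at 0.189, 0, 14.2 and 5.43 CPM in CML-TKI 1 to 4, were also higher in CML-TKI 3 and 4 than in 1 and 2, and at most 1.15 CPM and 0.192 CPM in the CML libraries. Their part in the Tlr7 values was not tested. Tlr7 was not among the genes tested, since only 3 libraries exceeded the 2.01 CPM (without TMM factors) that the count filter asks of 4. Fitted without that filter, its log2 fold change was 4.87 (SE 1.20).

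Tlr9 encodes the receptor for unmethylated CpG DNA (chr9:106222598-106226876). In the CML libraries it was at 0, 0.384, 0.576 and 0.41 CPM, again at or under the floor in all 4. In CML-TKI 1 to 4 it was at 4.34, 9.54, 3.27 and 16 CPM, and the 3.27 CPM of CML-TKI 3 rest on 3 counts. The groups did not overlap, and the log2 fold change was 4.57 (SE 0.95).

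To show what sequence these jointly higher genes carry at their starts, promoter windows of RefSeq (GRCm38.p6) were searched on both strands. The patterns were GAGGAA, the core that the myeloid factor PU.1 binds, and TTNNGCAA, a C/EBP-type pattern. A window runs from 250 bases before to 50 bases after a start listed for the gene, which need not be the outer end of its span. The table held 9 windows for 7 of the members, and none was read for Tlr4, Tlr7 and Cd14. GAGGAA was in the windows of Tlr8, Tlr9 and Tlr13 and in 1 of the 2 windows of Tlr1, and in none of those of Tlr2, Tlr6 and Myd88. The windows of Tlr6 (chr5:64959117-64959416 and chr5:64959999-64960298) lie inside the gene, away from its outer end. Of all 32851 windows, 28.3% held it. The 4 windows that hold it are shown with the match in capitals, and TTCCTC is its reverse complement.
Tlr13 (plus strand, chrX:106143025-106143324): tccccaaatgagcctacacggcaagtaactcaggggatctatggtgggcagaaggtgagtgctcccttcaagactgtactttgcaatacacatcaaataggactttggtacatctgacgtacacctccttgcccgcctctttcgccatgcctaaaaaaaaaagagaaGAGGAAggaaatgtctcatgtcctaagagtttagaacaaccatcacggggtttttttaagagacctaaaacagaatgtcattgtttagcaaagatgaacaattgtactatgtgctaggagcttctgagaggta
Tlr8 (minus strand, chrX:167264280-167264579): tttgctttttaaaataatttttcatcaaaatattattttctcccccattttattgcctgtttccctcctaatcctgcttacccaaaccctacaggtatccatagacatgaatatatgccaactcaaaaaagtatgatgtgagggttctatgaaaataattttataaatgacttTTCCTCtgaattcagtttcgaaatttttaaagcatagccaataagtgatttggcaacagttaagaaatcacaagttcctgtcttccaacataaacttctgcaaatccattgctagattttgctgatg
Tlr9 (plus strand, chr9:106222348-106222647): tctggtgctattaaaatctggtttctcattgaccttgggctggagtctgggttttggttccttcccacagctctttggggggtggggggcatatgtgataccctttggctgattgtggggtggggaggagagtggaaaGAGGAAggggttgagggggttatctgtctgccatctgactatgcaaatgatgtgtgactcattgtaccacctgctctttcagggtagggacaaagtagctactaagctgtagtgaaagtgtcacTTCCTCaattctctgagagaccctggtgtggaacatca
Tlr1 (minus strand, chr5:64933509-64933808): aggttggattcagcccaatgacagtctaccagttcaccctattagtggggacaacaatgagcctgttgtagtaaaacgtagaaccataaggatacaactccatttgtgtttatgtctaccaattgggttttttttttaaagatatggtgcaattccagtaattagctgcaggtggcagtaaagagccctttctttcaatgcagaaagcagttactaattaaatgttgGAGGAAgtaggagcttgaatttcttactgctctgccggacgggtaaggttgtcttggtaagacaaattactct

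In Tlr13 the match began 83 bases before the start, in Tlr8 77 bases before, in Tlr1 23 bases before, and in Tlr9, which had 2 matches, 112 bases before and 12 bases after the start. TTNNGCAA was in the windows of Tlr13 (1 match), Tlr8 (2 matches) and 1 window of Tlr6, against 10.8% of all windows. These matches describe the letters and say nothing of binding in these cells.

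Among the receptors of the cell surface, Tlr1 was the member that differed. TLR1 and TLR6 each pair with TLR2, TLR1 for triacylated and TLR6 for diacylated bacterial lipopeptides, and their genes are neighbours on the minus strand of chromosome 5 (chr5:64924680-64933600 and chr5:64953092-64970942). Tlr1 was at 0, 0, 0.96 and 0.956 CPM in the CML libraries and at 5.85, 11.7, 46.8 and 5.95 CPM in CML-TKI 1 to 4. CML-TKI 3 was far above the other 3. The log2 fold change was 5.07 (SE 1.22), and 3.98 (SE 1.11) without CML-TKI 3.

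Tlr6 was at 6.36, 5.37, 8.26 and 5.05 CPM in the CML libraries and at 9.43, 6.47, 6.53 and 5.43 CPM in CML-TKI 1 to 4. These ranges overlapped almost fully, and the log2 fold change was 0.16 (SE 0.47).

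The levels of Tlr1 and Tlr6 were not counted independently of each other. Their estimated counts were whole in CML 1 and CML 2 only, where Tlr1 was at 0, but the sum of the pair was whole in all 8 libraries (within 0.001), whereas the other 8 members were whole in every library. This is the pattern left when reads that match both genes are divided between them. In GENCODE vM21, 6 identical stretches of at least 50 bases make up 748 of the 2385 coding bases of Tlr1 and of the 2418 of Tlr6, the stop codons left out. The longest, of 229 bases, is at chr5:64925537-64925765 in Tlr1 and chr5:64953828-64954056 in Tlr6, both on the minus strand, and is shown because a read within it cannot be assigned to either gene.
Tlr1 and Tlr6: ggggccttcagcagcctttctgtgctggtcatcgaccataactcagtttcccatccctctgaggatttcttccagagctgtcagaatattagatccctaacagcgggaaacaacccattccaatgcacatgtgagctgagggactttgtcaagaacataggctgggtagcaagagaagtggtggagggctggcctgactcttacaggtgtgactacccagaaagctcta

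It is separated from the next identical stretch, of 119 bases, by 1 base. The windows of 61 bases round that base (chr5:64925736-64925796 and chr5:64954027-64954087) are given with it in capitals, the substitution being C31T, counted from 1 at the 5′ end, with the Tlr1 base first.
Tlr1: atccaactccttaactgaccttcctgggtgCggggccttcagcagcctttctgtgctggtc
Tlr6: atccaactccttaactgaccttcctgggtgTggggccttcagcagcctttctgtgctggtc

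The share of the pair that was given to Tlr1 was 0%, 0%, 10.1% and 15.3% in CML 1, 2, 3 and 5, and 38.5%, 63.9%, 88.5% and 52.4% in CML-TKI 1 to 4. The pair as a whole was at 6.36, 5.37, 9.22 and 6.01 CPM in the CML libraries and at 15.3, 18.2, 53.4 and 11.4 CPM in CML-TKI 1 to 4. All CML-TKI libraries were above all CML libraries in the sum as well. With both genes summed to 1 row, an alternative added after seeing the data, the log2 fold change was 1.82 (SE 0.54) and did not pass the threshold.

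**Figure D1:**
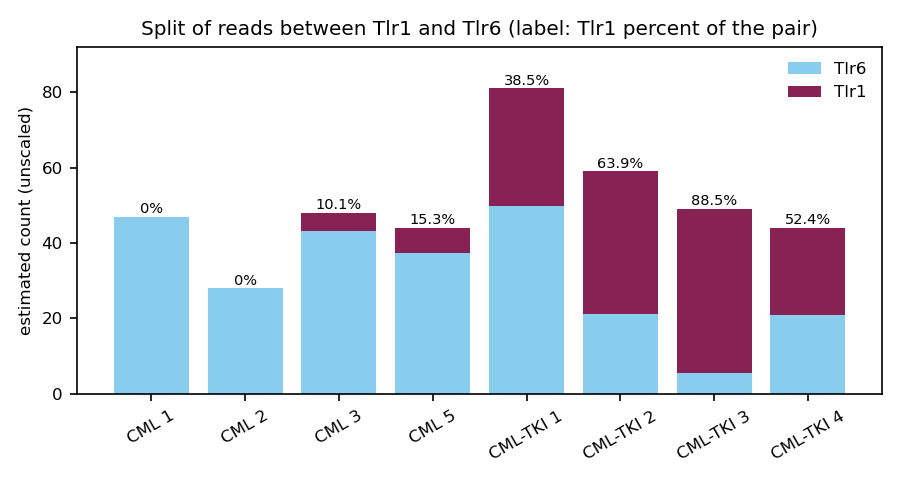
Estimated counts, not scaled for library size, of Tlr6 (light) and Tlr1 (dark) in each library, with the Tlr1 percent of the pair above each bar. The Tlr1 part is at most 15.3% in the CML libraries and 38.5% to 88.5% in the CML-TKI libraries, while the total count is whole in each.

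Tlr2, the common partner of TLR1 and TLR6 (chr3:83836272-83841824), was at 14.2, 12.5, 9.6 and 16.7 CPM in the CML libraries. In CML-TKI 1 to 4 it was at 16.8, 49.3, 3.27 and 5.95 CPM. The CML-TKI libraries lay on both sides of the CML range, with CML-TKI 2 the highest and CML-TKI 3 the lowest. The log2 fold change was 0.53 (SE 0.70), and without CML-TKI 2 it was -0.54.

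Tlr4, the lipopolysaccharide receptor (chr4:66827551-66846581), was at 43.6, 42.4, 58.7 and 19.3 CPM in the CML libraries and at 60.4, 127, 90.4 and 53 CPM in CML-TKI 1 to 4. Only CML-TKI 4 lay within the CML range. The log2 fold change was 1.01 (SE 0.39).

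Cd14 encodes the protein that hands lipopolysaccharide to TLR4 and lies on chromosome 18. It was at 1.35, 0.192, 0 and 2.32 CPM in the CML libraries and at 3.96, 17.5, 31.6 and 15.5 CPM in CML-TKI 1 to 4. CML-TKI 1 was close to CML 5, and the groups did not overlap. The log2 fold change was 4.03 (SE 1.04), and 3.59 (SE 1.07) without CML-TKI 3.

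Myd88, the adaptor used by every Toll-like receptor except TLR3 (chr9:119335934-119340018), was at 48.2, 47, 41.9 and 56.5 CPM in the CML libraries and at 42.1, 107, 61 and 61.8 CPM in CML-TKI 1 to 4. CML-TKI 1 lay within the CML range. The log2 fold change was 0.49 (SE 0.30).

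**Figure D2:**
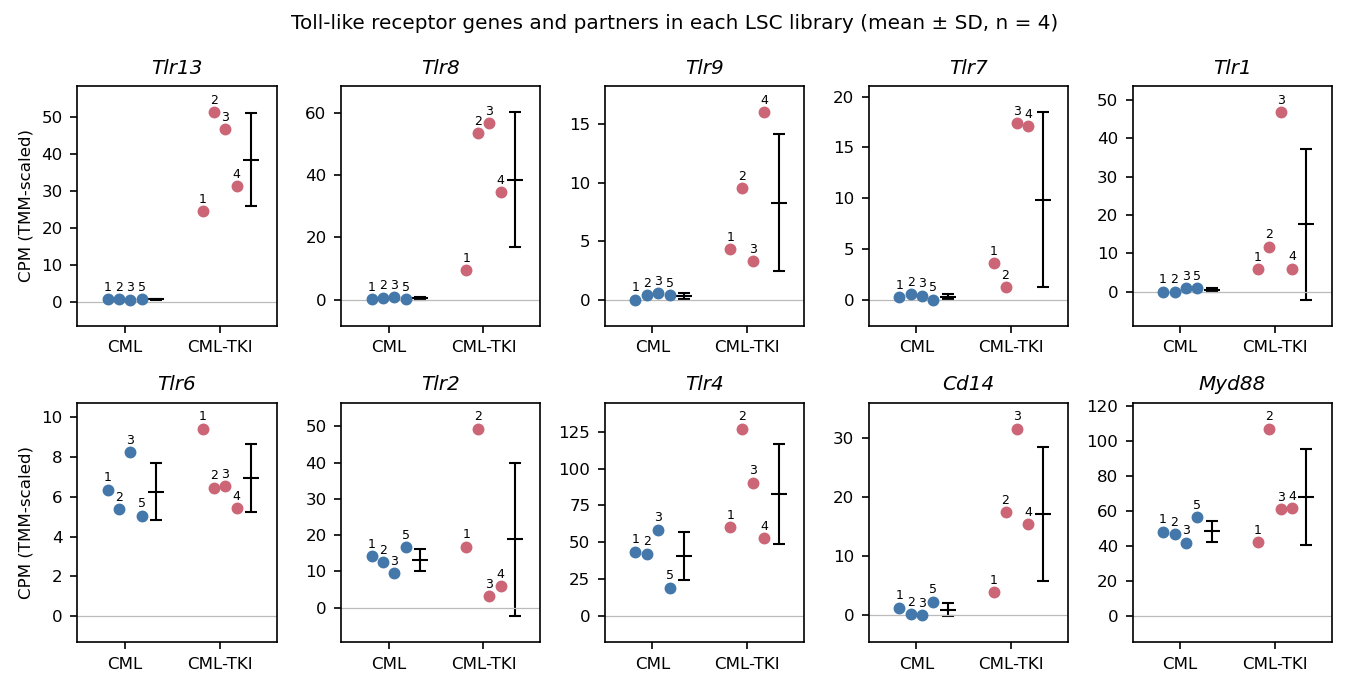
TMM-scaled CPM of each member in each library, numbered as in the text, with the mean and SD (n = 4) beside the points. In Tlr13, Tlr8, Tlr9, Tlr7, Tlr1 and Cd14 all CML-TKI libraries lie above all CML libraries, and in Tlr6, Tlr2, Tlr4 and Myd88 the groups overlap.

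Counted over the members, 5 of the 9 tested (Tlr1, Tlr8, Tlr9, Tlr13 and Cd14) had an adjusted p under 0.05 by edgeR's quasi-likelihood test across all genes, all higher in CML-TKI LSCs. Over the 11936 genes tested, 10.2% passed in either direction and 6.29% were higher. The groups did not overlap in 6 of the 10 members, against 10.3% of all genes tested with all CML-TKI libraries above all CML libraries. Since this contrast was used to choose the members, nothing is read from these counts. Tlr1, Tlr8, Tlr9, Tlr13 and Cd14 also passed the count filter through the CML-TKI libraries alone, as none reached its cutoff, in CPM without TMM factors, in a CML library. The median log2 fold change of the 9 was 4.03, and that of all genes was 0.00.

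When libraries were left out singly, Tlr8 had log2 fold changes of 5.93 to 6.78 and Tlr13 of 5.30 to 5.64. The calls of Tlr9, Tlr1 and Cd14 depended on single libraries. Tlr9 did not pass without CML 2, CML 3 or CML 5 (4.04 to 4.88 over all libraries left out in turn). Tlr1 did not pass without any of the CML libraries or without CML-TKI 3 (3.98 to 5.68), and Cd14 passed with all 8 libraries and without CML-TKI 1 and did not pass without any of the others (3.59 to 4.86). With no filter on low counts Cd14 did not pass and Tlr7 did, so that the count of members was again 5. These refits repeat the contrast that chose the members, so nothing is read from them either.

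**Figure D3:**
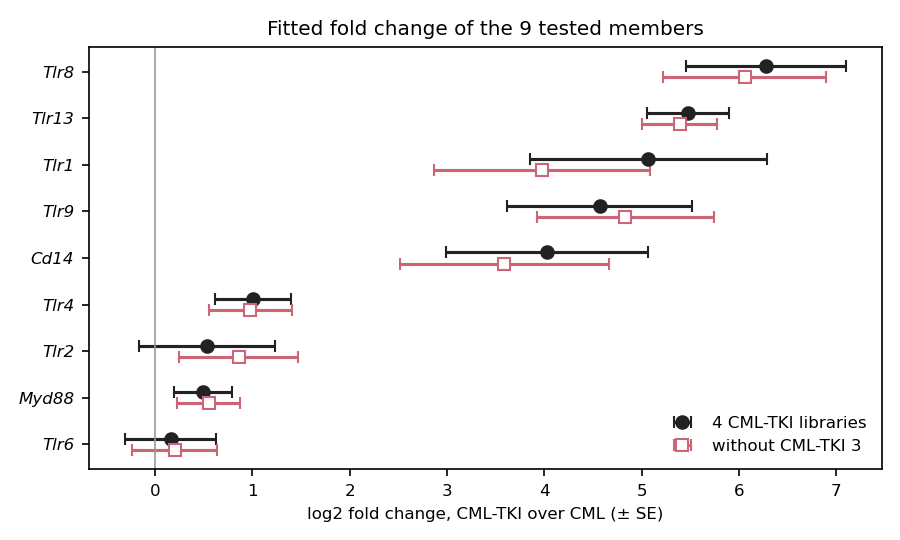
Fitted log2 fold change (CML-TKI over CML) with its SE for the 9 tested members, with all 8 libraries (filled circles) and without CML-TKI 3 (open squares). Tlr8 moves from 6.28 to 6.06, Tlr13 from 5.48 to 5.39, and Tlr1 from 5.07 to 3.98.

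Levels were compared between genes as CPM per kilobase of merged exons. In CML LSCs the order was Myd88 (24.7 ± 3.11), Tlr4 (7.5 ± 2.98), Tlr2 (4.39 ± 0.986), Tlr6 (1.7 ± 0.392), Cd14 (0.589 ± 0.66), Tlr13 (0.207 ± 0.0204), Tlr1 (0.154 ± 0.177), Tlr8 (0.146 ± 0.125), Tlr9 (0.0984 ± 0.07) and Tlr7 (0.0776 ± 0.0607; SD, n = 4). Myd88 and Tlr4, and Tlr2 and Tlr6, were neighbours whose libraries did not overlap, and all other neighbours overlapped. In CML-TKI LSCs the order of these levels was Myd88 (34.6 ± 14), Tlr4 (15.1 ± 6.15), Tlr8 (11.2 ± 6.28), Cd14 (10.5 ± 6.9), Tlr13 (9.51 ± 3.1), Tlr2 (6.24 ± 7.01), Tlr1 (5.63 ± 6.31), Tlr7 (2.48 ± 2.17), Tlr9 (2.38 ± 1.68) and Tlr6 (1.89 ± 0.468). Here every pair of neighbours overlapped. Myd88 and Tlr4 led in both groups, and Tlr8 and Tlr13 stood above Tlr2 and Tlr6 in mean level only in CML-TKI LSCs.

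Genes listed as monocyte and macrophage markers were higher in the same libraries as the endosomal receptors, which does not show how mature the cells were. The 9 monocyte and macrophage markers found in the table, Csf1r, Ly6c2, Ccr2 and F13a1 among them, summed to 34.2, 33.6, 52.4 and 49.4 CPM in the CML libraries and to 881, 4550, 3424 and 2540 CPM in CML-TKI 1 to 4, and 8 of the 9 were higher. CML-TKI 1 was the lowest of its group in this sum as in the receptor sum. Csf1r was at 0.959 to 3.65 CPM in CML LSCs and 75.5 to 389 CPM in CML-TKI LSCs, and no marker of this list was at 0 in every library. The sum of the 4 endosomal receptors was 3.56%, 8%, 5.13% and 2.76% of the marker sum in the CML libraries and 4.8%, 2.54%, 3.62% and 3.91% in CML-TKI 1 to 4, so that this ratio overlapped between the groups. For Tlr13 alone it was 1.47% to 2.86% and 1.13% to 2.81%. Tlr4 was at 39% to 127% of the marker sum in CML LSCs and at 2.09% to 6.85% in CML-TKI LSCs, and Myd88 at 79.9% to 141% and 1.78% to 4.78%, without overlap. These ratios restate the levels above, of members chosen by this contrast, so nothing is read from their overlap. In CML LSCs the endosomal ratios rest on few counts, 7 for Tlr7, 11 for Tlr8, 8 for Tlr9 and 21 for Tlr13. The part of monocytes in the members' values was not tested.

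**Figure D4:**
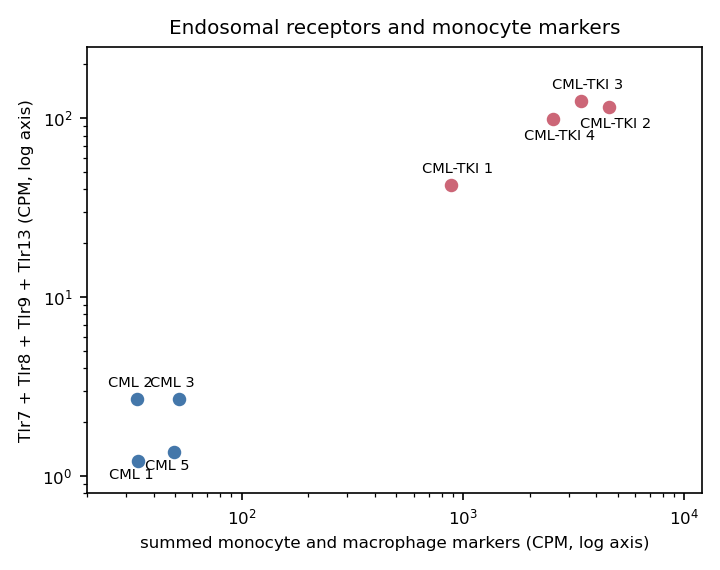
Summed CPM of Tlr7, Tlr8, Tlr9 and Tlr13 against the summed CPM of 9 monocyte and macrophage markers in each library, both on log axes. CML libraries (blue) lie at 33.6 to 52.4 CPM of markers and 1.22 to 2.69 CPM of receptors, and CML-TKI libraries (red) at 881 to 4550 CPM and 42.3 to 124 CPM.

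The 12 granulocyte markers, from Elane to Mmp8, summed to 179 to 293 CPM in CML LSCs and 1478 to 8406 CPM in CML-TKI LSCs, with 11 higher. Those of dendritic cells summed to 55.9 to 78.3 CPM and 25.9 to 128 CPM, the highest in CML-TKI 4, and 0 of the 4 tested passed, with Siglech and Itgax among the 3 not tested. The B cell markers differed in CML-TKI 3 only, and among them Igll1 was at 0 in every library. T and NK cell markers summed to 11.1 to 26.2 CPM and 13.8 to 162 CPM, the highest again in CML-TKI 3. Erythroid markers were at 625 to 754 CPM and 59.4 to 23860 CPM, and basophil and mast cell markers at 255 to 358 CPM and 69.7 to 1222 CPM, the highest in CML-TKI 4. Of the basophil and mast cell markers, 1 was higher, 1 lower and 4 not tested. Mcpt8, not tested, was at 0 in every CML library and at 1.09 to 139 CPM in CML-TKI LSCs. Megakaryocyte markers were at 1461 to 1761 CPM and 48.3 to 604 CPM, and 2 of 7 were lower. The part of these cells in the members' values was not tested.

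Around the members, 126 other genes of the pathway were listed by role. Of these, 115 were in the table and 94 were tested, of which 22 were higher and 3 lower in CML-TKI LSCs, beside 6.29% of all genes higher and 3.93% lower. Their median log2 fold change was 0.31, and adjusted p-values are those of edgeR (quasi-likelihood, Benjamini-Hochberg) over all 11936 genes. Without CML-TKI 3, 20 of 95 were higher and 6 lower. The 25 calls became 15 without CML 1, 16 without CML 2, 16 without CML 3 and 39 without CML-TKI 1.

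**Figure D5:**
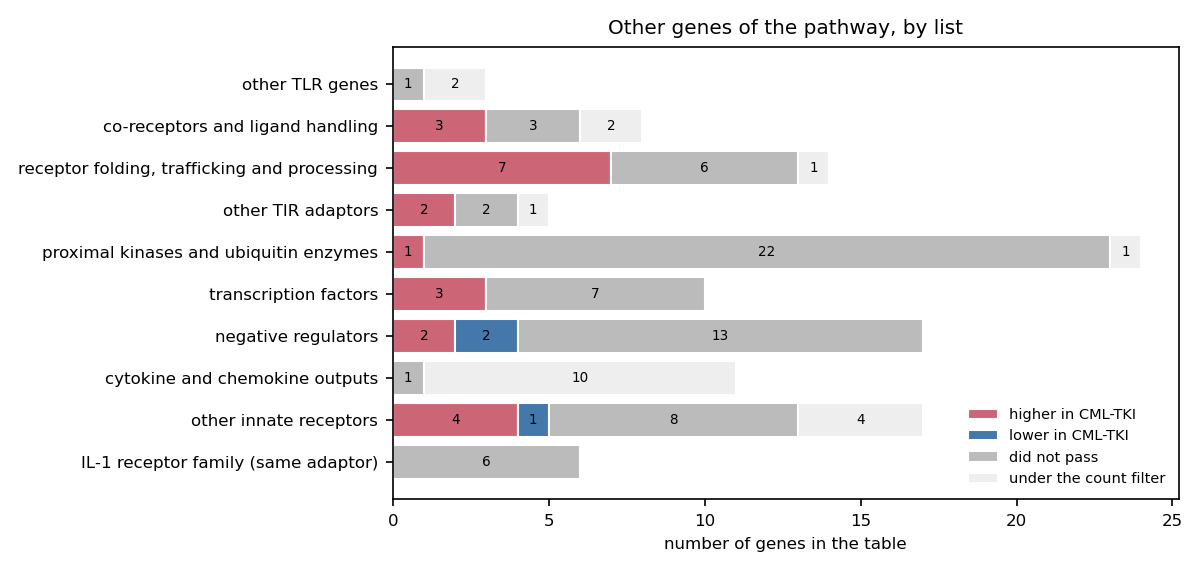
Number of genes in the table for each pathway list, divided into those higher, lower, not past the threshold and under the count filter. Folding, trafficking and processing holds 7 of the 25 calls (7 of 13 tested), and 1 of 23 tested kinases and ubiquitin enzymes is called.

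Of the remaining Toll-like receptor genes, none passed by edgeR with all 8 libraries. Tlr3, the receptor for double-stranded RNA, was at 2.05 to 2.84 CPM in the CML libraries, at 2.64 CPM in CML-TKI 1 and at 0 in CML-TKI 2 to 4 (log2 fold change -1.50, SE 1.14, adjusted p = 0.45). Tlr5, the flagellin receptor, was at or below 0.767 CPM in all libraries and was not tested. Tlr12 was not tested either and was at 29.4 CPM in CML-TKI 3 and 13.2 CPM in CML-TKI 4, against at most 2.49 CPM elsewhere. Without CML-TKI 1, Tlr3 (adjusted p = 0.0151), then at 0 in every CML-TKI library, and Tlr12 (log2 fold change 3.24, SE 0.96, adjusted p = 0.0404) passed. With all 8 libraries Tlr3 passed by limma-voom with quality weights (log2 fold change -3.07, SE 0.96, adjusted p = 0.0351).

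Co-receptors and proteins that handle ligands had 3 of 6 tested genes higher and none lower, with a median log2 fold change of 1.10. Ly86 (MD-1), the partner of the TLR4 homologue CD180, was at 0 to 0.541 CPM in CML LSCs and at 10, 68.3, 22.9 and 18.6 CPM in CML-TKI 1 to 4 (log2 fold change 6.62, SE 0.92, adjusted p = 0.00237). Cd180 itself was at 13.9 to 26.3 CPM and 5.47 to 62.1 CPM (log2 fold change 0.52, SE 0.60, adjusted p = 0.634). Itgam (CD11b) rose from between 10.4 and 17.3 CPM to between 43.8 and 206 CPM (log2 fold change 3.64, SE 0.47, adjusted p = 0.00182), and Lbp, which binds lipopolysaccharide, from between 18.6 and 24.9 CPM to between 45 and 123 CPM (log2 fold change 1.69, SE 0.34, adjusted p = 0.0127). Ly96 (MD-2), which TLR4 needs to bind lipopolysaccharide, was at 0.384 to 0.96 CPM and 0.616 to 2.18 CPM and was not tested. Lbp did not pass without CML 2 or CML 3 (adjusted p up to 0.055 with 1 library left out).

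Proteins that fold, move or process the receptors had the most calls, 7 of 13 higher and none lower, with a median log2 fold change of 1.11. Unc93b1, which escorts the endosomal receptors from the endoplasmic reticulum, was at 33.9 to 63.1 CPM in CML LSCs and at 80, 207, 356 and 207 CPM in CML-TKI 1 to 4 (log2 fold change 2.27, SE 0.42, adjusted p = 0.0094). Hsp90b1 (gp96), a chaperone of most Toll-like receptors, rose by 2.10 on the log2 scale (SE 0.31, adjusted p = 0.00332), and its co-chaperone Cnpy3 had a log2 fold change of 0.45 (SE 0.33, adjusted p = 0.432). Ctss, an endosomal protease, rose from between 3.11 and 5.38 CPM to between 24.7 and 148 CPM (log2 fold change 4.18, SE 0.52, adjusted p = 0.00148), and Ctsb by 1.11 on the log2 scale (SE 0.22, adjusted p = 0.0126). Rab7b, which directs receptors to lysosomes, was at 0 to 0.406 CPM and 7.55 to 26.1 CPM (log2 fold change 6.26, SE 0.96, adjusted p = 0.00381). Atp6ap2, an accessory subunit of the proton pump that acidifies endosomes, rose by 1.31 on the log2 scale (SE 0.26, adjusted p = 0.0122) and Slc15a4, an endolysosomal transporter, by 0.91 on the log2 scale (SE 0.24, adjusted p = 0.0428). Ctsb did not pass without CML 1, CML 2 or CML 3 and Atp6ap2 not without CML 1 or CML 3 (adjusted p up to 0.0599 and 0.0532). Slc15a4 held with CML 5 or CML-TKI 1 left out but not with any other library left out (adjusted p up to 0.138). With CML 1 to 3 and CML-TKI 1 to 3 blocked by number, Hsp90b1 and Ctss alone among the 7 still passed. With CML 1 to 3 summed, Ctss alone did.

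Among the other adaptors, Tirap, which bridges TLR2 and TLR4 to MyD88, was at 5.33 to 11.9 CPM in CML LSCs and at 26, 32.3, 56.6 and 27.7 CPM in CML-TKI 1 to 4 (log2 fold change 1.88, SE 0.39, adjusted p = 0.0154). Ticam2, which links TLR4 to TRIF, was at 7.79 to 12.9 CPM and at 13.4, 64, 46.8 and 54.8 CPM (log2 fold change 2.07, SE 0.46, adjusted p = 0.0202). Ticam1, which encodes TRIF, had a log2 fold change of -0.57 (SE 0.41, adjusted p = 0.422). Tirap did not pass without CML 1 or CML 2, and Ticam2 without any CML library or without CML-TKI 2 (adjusted p up to 0.0582 and 0.0707).

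The kinases and ubiquitin enzymes below MyD88 gave 1 call among 23 tested genes, with a median log2 fold change of 0.08. This gene was Chuk, which encodes IKK-alpha, at 24.4 to 48.5 CPM in CML LSCs and 69.7 to 108 CPM in CML-TKI LSCs (log2 fold change 1.13, SE 0.27, adjusted p = 0.0288), and it did not pass without CML 1, CML 2, CML 3 or CML-TKI 2 (adjusted p up to 0.0829). Irak4, the first kinase bound by MyD88, had a log2 fold change of 0.44 (SE 0.27, adjusted p = 0.344), Irak1 a log2 fold change of -0.16 (SE 0.22, adjusted p = 0.696) and Traf6 one of -0.30 (SE 0.20, adjusted p = 0.396).

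Of 10 transcription factors, 3 rose and none fell, and the median log2 fold change was -0.34. Irf8, which is also on the monocyte list, was at 2.68 to 8.74 CPM in CML LSCs and at 70.6, 316, 244 and 354 CPM in CML-TKI 1 to 4 (log2 fold change 5.26, SE 0.57, adjusted p = 8.71e-04). Irf5, which acts below TLR7 and TLR9, was at 11.5 to 14.9 CPM and at 32.3, 84.4, 143 and 39.8 CPM (log2 fold change 2.52, SE 0.46, adjusted p = 0.00926). Rel, an NF-kB subunit, was at 20.2 to 39.4 CPM and 37.9 to 112 CPM (log2 fold change 1.41, SE 0.36, adjusted p = 0.0368), and did not pass without any CML library or without CML-TKI 2, 3 or 4 (adjusted p up to 0.113). Rela had a log2 fold change of -0.53 (SE 0.25, adjusted p = 0.212) and Irf7, at 24.8 to 30.5 CPM and 2.46 to 17.4 CPM, one of -1.54 (SE 0.50, adjusted p = 0.0825). Irf7 passed without CML-TKI 3 (log2 fold change -1.89, SE 0.47, adjusted p = 0.0419) and, with all 8 libraries, by DESeq2 (adjusted p = 0.018) and limma-voom (adjusted p = 0.0234).

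The 17 negative regulators had 2 genes higher, 2 lower and a median log2 fold change of -0.41. Sigirr, a TIR-domain receptor that dampens signals, fell from between 36.2 and 81 CPM to between 11.4 and 18.6 CPM (log2 fold change -1.89, SE 0.33, adjusted p = 0.00779). Tnip3, a partner of the deubiquitinase A20, fell from between 17.9 and 30.1 CPM to between 0 and 3.58 CPM (log2 fold change -4.32, SE 0.90, adjusted p = 0.0154), but did not pass without CML 1, CML 2 or CML 3 (adjusted p up to 0.0555). Lilrb4a, an inhibitory receptor of myeloid cells, rose from between 1.73 and 2.3 CPM to between 29.7 and 63.1 CPM (log2 fold change 4.52, SE 0.38, adjusted p = 5.42e-04). Il1rl1, known foremost as the receptor of IL-33, rose from between 1.91 and 8.05 CPM to between 14.5 and 105 CPM (log2 fold change 3.72, SE 0.64, adjusted p = 0.00683). Tnfaip3, which encodes A20, had a log2 fold change of -0.53 (SE 0.40, adjusted p = 0.446).

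The cytokines and chemokines that these receptors induce were mostly too low to test. Of 18 listed, 11 were in the table and Il12a alone was tested (log2 fold change -0.59, SE 0.73, adjusted p = 0.663). Il1b was at 0.767 to 1.15 CPM in the CML libraries and at 5.47, 8.62, 20.7 and 0 CPM in CML-TKI 1 to 4, and Tnf was at or below 1.34 CPM in the CML libraries and at 0.566, 0, 0 and 3.62 CPM.

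Receptors of other innate families gave 4 higher and 1 lower of 13 tested. Nlrc4 (log2 fold change 5.38, SE 0.75, adjusted p = 0.00235) and Nlrp3 (log2 fold change 4.97, SE 0.97, adjusted p = 0.0115), which assemble inflammasomes, and Clec7a (Dectin-1, log2 fold change 3.26, SE 0.49, adjusted p = 0.00333) rose. Mefv, which encodes pyrin, was at 0 in all CML libraries but CML 3 (0.384 CPM) and at 17.7 to 88.2 CPM in CML-TKI LSCs (adjusted p = 8.71e-04). Ifih1 (MDA5), a sensor of double-stranded RNA, fell by 1.69 on the log2 scale (SE 0.41, adjusted p = 0.0303) and, like Nlrp3 without CML 1, did not pass without CML 1, 2 or 3 or CML-TKI 2, 3 or 4 (adjusted p up to 0.0904 and 0.0556). None of the 6 tested genes of the IL-1 receptor family, which shares MyD88, passed by edgeR with all 8 libraries, and their log2 fold changes ran from -2.10 (Il1r1, SE 0.71, adjusted p = 0.0906) to 3.16 (Il1r2, SE 1.38, adjusted p = 0.181). Without CML-TKI 1, Il1r1 (lower in CML-TKI LSCs, adjusted p = 0.00906), Il1r2 (log2 fold change 3.58, SE 0.97, adjusted p = 0.0286) and Il18rap, a subunit of the IL-18 receptor (log2 fold change 1.23, SE 0.26, adjusted p = 0.0106), passed. By DESeq2 and limma-voom with all 8 libraries, Il1r1 (adjusted p = 0.0122 and 0.0258) and Il18rap (adjusted p = 0.0302 and 0.0298) passed. Without CML-TKI 3 the log2 fold change of Il1r2 was 0.91 (SE 1.12).

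The genes most like the members in pattern were sought among 9291 tested genes whose mean log2 CPM reached 3, by Pearson's r with the mean z score of the 9 tested members. Over the 8 libraries these were Rad17, Arpc1b, Dnajb6 and G6pdx (r = 0.985 each) and Lbp (r = 0.983), and the difference between the groups enters this r. After centring each group, so that only differences among libraries of a group remain, they were Ppm1h (0.985), Clec4e (0.970), Actr3 (0.970), Emb (0.962) and Dnajb6 (0.962). Their levels were highest in CML-TKI 2 and lowest in CML-TKI 1 among the CML-TKI libraries, as with Actr3 at 248, 589, 439 and 363 CPM in CML-TKI 1 to 4. These values are descriptions over libraries that also differ in depth and in the marker genes above.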

How the data were processed

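Estimated counts per gene, deposited by the authors without normalization, were analysed. The authors made Nextera XT libraries and, per the labels and methods, aligned reads to mm10 with STAR 2.6.1d and counted RefSeq transcripts in Partek Flow (version 8.0 in the labels). Columns were matched to the sample titles by number. The fourth CML column carries the number 5, which no title has, and was matched to the CML group but to no sample (CML 5). Counts were rounded and 11936 genes were tested with edgeR 4.0.16 in R 4.3.3 (TMM, filterByExpr with a minimum count of 10 and a minimum total of 15, robust quasi-likelihood test, Benjamini-Hochberg adjustment, threshold 0.05). SE was taken as the absolute log2 fold change over the root of the F statistic, and log2 CPM used a prior count of 2. The fit was tested on simulated data. The members and gene lists were chosen with earlier results of these data known. Named by rule were all members and at most 6 called genes per list. Slc15a4 and the genes named without passing were chosen after their values were seen. Alternatives were DESeq2 1.42.0, limma 3.58.1 voom, other scalings, filters and depths, and libraries left out, blocked or summed. Floors cover counting error only. Coordinates and promoters are from RefSeq (GRCm38.p6), exon lengths and coding sequences from GENCODE vM21.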

Additional observations from a re-analysis of the deposited data

Results flagged for a closer look

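In 98 groups of 4 libraries (the members and the tested genes named in the pathway lists, in each condition), 8 held a library whose gap to the nearest other exceeded Dixon's 95% critical value for 4 values, and chance flags about 1 in 20 groups, here about 5. Tlr5, Tlr12, Ly96, Il1b and Tnf, named but not tested, were not among these groups. Tlr1 in CML-TKI 3 was at 46.8 CPM, against 5.85 to 11.7 CPM in the other CML-TKI libraries. Itgam in CML 3 was at 17.3 CPM, against 10.4 to 10.7 CPM in the other CML libraries. Mefv in CML 3 was at 0.384 CPM and at 0 in the others, which is under the floor of 3 counts. Ifih1 in CML 5 was at 39.1 CPM, against 102 to 112 CPM, and Tnip3 in CML 5 was at 17.9 CPM, against 28.3 to 30.1 CPM. Among the genes named without passing, Tlr3 in CML-TKI 1 was at 2.64 CPM and at 0 in the other CML-TKI libraries, Rela in CML-TKI 2 was at 91.4 CPM, against 57.7 to 62.1 CPM, and Il1r2 in CML-TKI 3 was at 56.6 CPM, against 0 to 6.46 CPM.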

How the results depend on the processing

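Of all genes tested, 1220 passed the threshold, 2156 with DESeq2, 2567 with limma-voom with quality weights, 193 with a replicate block and 122 with CML 1 to 3 summed, and from 506 (without CML 1) to 2503 (without CML-TKI 1) with 1 library left out. Of the members 5 passed, 2 with the replicate block, 2 with CML 1 to 3 summed, 2 of 5 tested when thinned to the smallest library, and 2 to 5 with 1 library left out. Their median log2 fold change of 4.03 was 5.03 with limma-voom, 2.53 when 10 counts were asked of every library of a group (8 members tested), 1.07 when thinned (5 tested) and 3.59 to 4.56 with 1 library left out. Of the pathway genes 25 passed, 6 with the replicate block, 4 with CML 1 to 3 summed and 15 to 39 with 1 library left out. The replicate block pairs CML 1 to 3 with CML-TKI 1 to 3 by number only: deviations of same-numbered libraries correlated at -0.02, 0.15 and 0.09, which are too few and too small to establish a pairing or to exclude one. Tlr2 changed sign with limma-voom (-0.09) and without CML-TKI 2 (-0.54 to 0.86 with 1 library left out), and Tlr6 without CML-TKI 1 (-0.04 to 0.31 with 1 library left out), and neither gene passed in any setting. Cd180 changed sign with limma-voom (-0.17) and without CML-TKI 3 (-0.13 to 0.86 with 1 library left out). Cd14 lost its call with no filter (log2 fold change 4.00), and Slc15a4 with total counts without Rn45s and with no filter (log2 fold changes of 0.76 to 1.06 over all settings). Over the 18 alternatives run for them, the log2 fold changes of Tlr8 and Tlr13 ran from 5.13 to 6.78 and from 4.56 to 5.64, a description, since this contrast chose the members. The causes were not tested, apart from the smaller number of genes or samples that the thinned, filtered and summed settings hold by construction. Depth limits Tlr7 and Tlr9, which had at most 3 counts in each CML library, and Tlr9 and Tlr2 in CML-TKI 3, which had 3. It also limits Tlr1, Tlr8 and Cd14, each at or under 3 counts in 2 CML libraries.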
